A study of Mus musculus with 12 samples.

Results

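Pam, Dpep1, Liph, Fez1, Ap1s3, Hebp1 and Hddc3 are 7 genes of mixed function that lie on chromosomes 1, 6, 7, 8, 9 and 16, away from Notch3 on chromosome 17. They were chosen from the knockout and control arrays of this series because their values were much higher in mice without Notch3. Their differences between knockout and control are therefore given as a description, with no test. All probe sets annotated to 1 of the 7 genes alone were taken, which gave 10 probe sets for 7 genes, of 34945 probe sets for 18193 genes that name a single gene. Of these 10, 7 passed the filter on dim values, 1 for each gene, and 3 did not.

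The arrays held RNA of small vessel fragments from the cerebrum and from the cerebellum of mice aged 2 months, of strain C57BL/6. Notch3 knockout mice and their littermate controls, labelled wildtype, gave 3 arrays of each region, so 12 arrays form 4 groups of 3. The same replicate number in both regions was taken as the same mouse, which makes 3 mice of each genotype. The labels do not state this in words. How the line was made is not given in the sources used here. Values are log2 expression from GCRMA, and the median of all values was 3.27, which is used below as the level at or under which a value is read as near background. On its brighter probe set Notch3 read 10.84 to 12.02 in control arrays and 2.48 to 3.58 in knockout arrays. Endothelial markers averaged 13.50 to 13.77 in all 12 arrays, and array medians lay between 3.24 and 3.3. Control mouse 3 and knockout mouse 2 lacked the female transcript Xist in both regions, and the other mice had it in both.

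Notch3 is a receptor on the mural cells of small vessels, smooth muscle cells and pericytes. On binding a ligand its inner part is cut free and acts in the nucleus with the DNA-binding protein Rbpj, which switches on target genes. The 7 genes are not textbook members of that pathway. Pam, Dpep1 and Liph encode enzymes of the secretory route and the cell surface. Fez1 and Ap1s3 encode proteins of intracellular transport, and Hebp1 and Hddc3 encode small soluble proteins that bind heme and cleave nucleotides.

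The promoters shown here are the stretches of 250 bases before an annotated start in which Fez1 and Hebp1 hold either of 2 short motifs that were searched on both strands. These were TGGGAA, the core that Rbpj binds, and CACGTG, an E-box of the kind bound by several families of helix-loop-helix factors. Sequences are from RefSeq on build GRCm38.p6, written 5′ to 3′ on the strand of the gene, and capitals mark a match on either strand. The first Fez1 window is chr9:36821641-36821890 on the plus strand, the second is chr9:36832490-36832739 on the plus strand, and the Hebp1 window is chr6:135168216-135168465 on the minus strand.
Fez1, first start: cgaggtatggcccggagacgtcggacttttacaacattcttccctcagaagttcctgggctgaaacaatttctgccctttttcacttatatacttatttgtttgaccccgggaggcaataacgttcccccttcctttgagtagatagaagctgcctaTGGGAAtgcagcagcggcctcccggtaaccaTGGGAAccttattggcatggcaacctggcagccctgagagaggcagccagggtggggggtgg
Fez1, second start: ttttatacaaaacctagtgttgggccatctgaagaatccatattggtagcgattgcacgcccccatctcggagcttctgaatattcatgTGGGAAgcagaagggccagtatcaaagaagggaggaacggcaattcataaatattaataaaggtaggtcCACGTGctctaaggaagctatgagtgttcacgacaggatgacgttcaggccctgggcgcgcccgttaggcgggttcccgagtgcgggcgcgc
Hebp1: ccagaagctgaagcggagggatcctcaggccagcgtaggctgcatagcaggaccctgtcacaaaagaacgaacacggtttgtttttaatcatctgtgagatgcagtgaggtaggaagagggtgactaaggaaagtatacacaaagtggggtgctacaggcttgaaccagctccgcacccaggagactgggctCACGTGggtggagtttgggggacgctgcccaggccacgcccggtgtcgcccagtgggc

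In the full windows of 300 bases, 250 before and 50 after the start, all 7 genes had an entry, with 10 windows in all. TGGGAA occurred in the windows of 2 genes, Fez1 and Ap1s3, that is in 3 of 10 windows, and 25.6% of all 32851 windows in the table hold it. In Fez1 the matches began 93 and 62 bases before the first start and 161 bases before the second, and a further match lay after the first start. In Ap1s3 the only match lay after the start. CACGTG occurred in 2 of 10 windows, 92 bases before the second Fez1 start and 58 bases before the Hebp1 start, against 7.2% of all windows. Pam, Dpep1, Liph and Hddc3 held neither run of letters in these windows.

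Across the 7 genes the knockout was higher by 0.80 to 3.02 log2 in cerebral vessels, with a median of 2.14, and by 0.67 to 2.74 in cerebellar vessels, with a median of 2.32. These measured differences include groups near background. In cerebral vessels all 3 control arrays of Dpep1 and Ap1s3 were at or under 3.27, and in cerebellar vessels those of Liph and Ap1s3. With the control arrays of these genes set to 3.27, the medians were 2.07 and 2.31. Over all 11716 genes tested the medians were -0.01 and 0.01. Every knockout array lay above every control array of its region for 6 of 7 genes in cerebral vessels, as it did for 10.1% of all genes, and for 7 of 7 in cerebellar vessels, as it did for 10.4%. Both held for 6 of 7 genes and for 3.58% of all genes. Because these differences chose the genes, nothing is read from those shares. For 5 genes, Pam, Fez1, Ap1s3, Hebp1 and Hddc3, each of the 6 knockout arrays was above each of the 6 control arrays. Dpep1 was high mainly in cerebellar vessels and Liph in cerebral vessels.

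**Figure D1:**
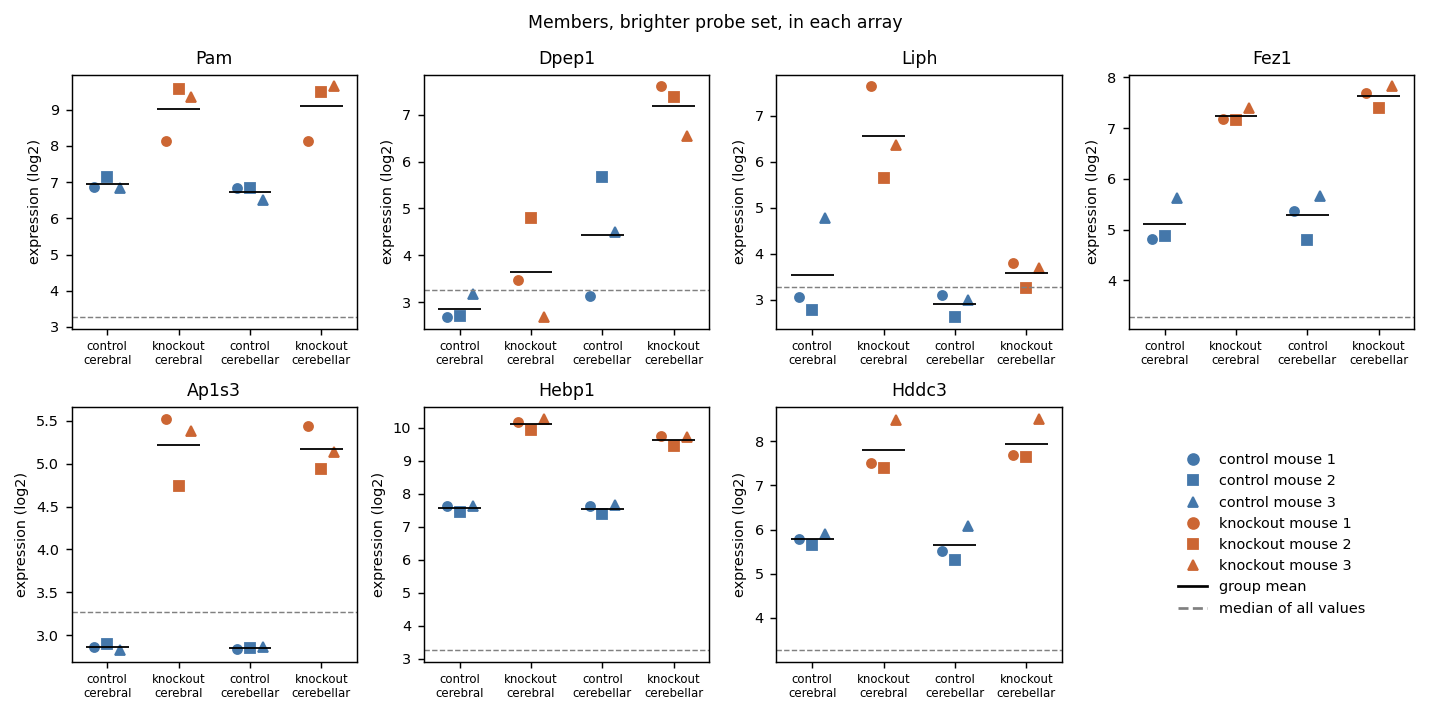
Expression (log2) of the 7 genes in each of 12 arrays, by genotype and region, with a symbol for each mouse, a bar for the mean of 3 arrays and a dashed line at the median of all values, 3.27. Pam, Fez1, Ap1s3, Hebp1 and Hddc3 are higher in knockout arrays of both regions, Liph mainly in cerebral and Dpep1 mainly in cerebellar vessels.

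Pam makes peptidylglycine alpha-amidating monooxygenase, the copper enzyme that puts the amide on the end of many peptide hormones. Control arrays read 6.86, 7.14 and 6.85 in cerebral and 6.83, 6.83 and 6.51 in cerebellar vessels, for mice 1, 2 and 3 in that order. Knockout arrays read 8.14, 9.58 and 9.35 in cerebral and 8.13, 9.50 and 9.65 in cerebellar vessels. The groups did not overlap, and knockout mouse 1 stood below the other two in both regions. The knockout was higher by 2.07 log2 (SE 0.46, n = 3 arrays per group) in cerebral and by 2.37 (SE 0.49) in cerebellar vessels.

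Dpep1 encodes a membrane dipeptidase that cleaves leukotriene D4 and the dipeptide left from glutathione. On its brighter probe set control arrays read 2.68, 2.70 and 3.18 in cerebral and 3.14, 5.67 and 4.50 in cerebellar vessels. Knockout arrays read 3.48, 4.80 and 2.68 in cerebral and 7.61, 7.38 and 6.54 in cerebellar vessels. In cerebral vessels the groups overlapped and all 3 control arrays were near background. In cerebellar vessels the knockout arrays were all above the controls, and the 3 controls were themselves widely spread. The measured difference was 0.80 (SE 0.64, n = 3 arrays per group) in cerebral vessels, or 0.23 without knockout cerebral replicate 2 and 1.29 without replicate 3. The cerebral array of knockout mouse 3, at 2.68, was near background as well, so no lower bound of a rise is given there. In cerebellar vessels the difference was 2.74 (SE 0.80).

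Liph encodes lipase H, which releases lysophosphatidic acid, a signalling lipid, from phosphatidic acid. Its brighter set read 3.06, 2.77 and 4.78 in control and 7.65, 5.64 and 6.37 in knockout cerebral vessels. In cerebellar vessels it read 3.11, 2.62 and 3.0 in controls and 3.81, 3.26 and 3.68 in knockouts. The knockout arrays were above the controls in either region, but in cerebellar vessels all 6 values lay close to background. The difference was 3.02 log2 (SE 0.86, n = 3 arrays per group) in cerebral vessels, where 2 of 3 control arrays were at or under 3.27. In cerebellar vessels it was 0.67 (SE 0.22). There the array of knockout mouse 2, at 3.26, was under 3.27 as well, so no lower bound of a rise is given.

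Fez1 encodes an adaptor that links cargo to kinesin motors and is known from the outgrowth of nerve fibres. Control arrays read 4.81, 4.88 and 5.63 in cerebral and 5.37, 4.80 and 5.66 in cerebellar vessels. Knockout arrays read 7.18, 7.17 and 7.39 in cerebral and 7.70, 7.40 and 7.83 in cerebellar vessels. The control mice were more spread out than the knockout mice, and the 2 genotypes stayed apart in both regions. The knockout was higher by 2.14 log2 (SE 0.27) in cerebral and 2.37 (SE 0.28) in cerebellar vessels.

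Ap1s3 encodes a small sigma subunit of AP-1, the clathrin adaptor that sorts cargo between the Golgi and endosomes. All 6 control arrays lay under the median of all values, at 2.86, 2.90 and 2.83 in cerebral and 2.84, 2.85 and 2.86 in cerebellar vessels. Knockout arrays read 5.52, 4.74 and 5.38 in cerebral and 5.44, 4.94 and 5.13 in cerebellar vessels. So the gene was near background in controls and above it in all 6 knockout arrays. Taken against the median of all values in place of the dim controls, the knockout was at least 3.85-fold higher in cerebral and at least 3.73-fold higher in cerebellar vessels.

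Hebp1 encodes a heme-binding protein whose cut end, a short peptide, attracts leukocytes through formyl peptide receptors. Control arrays read 7.63, 7.44 and 7.62 in cerebral and 7.62, 7.38 and 7.66 in cerebellar vessels. Knockout arrays read 10.17, 9.92 and 10.27 in cerebral and 9.74, 9.45 and 9.72 in cerebellar vessels. Its mice differed little within a group (SD 0.11 to 0.18). The knockout was higher by 2.55 log2 (SE 0.12), 5.88-fold, in cerebral and by 2.09 (SE 0.13), 4.25-fold, in cerebellar vessels.

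Hddc3 encodes the animal counterpart of the bacterial enzymes that break down the alarmone ppGpp, and it also removes a phosphate from NADPH. Its brighter set read 5.78, 5.66 and 5.89 in control cerebral and 5.52, 5.32 and 6.09 in control cerebellar vessels. Knockout arrays read 7.51, 7.40 and 8.48 in cerebral and 7.69, 7.65 and 8.51 in cerebellar vessels. Knockout mouse 3 stood above the other two in both regions. The knockout was higher by 2.02 log2 (SE 0.35) in cerebral and 2.31 (SE 0.36) in cerebellar vessels.

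Of the 7 genes, 3 had a second probe set, and those of Hddc3 and Liph stayed near background in all groups. The second set of Hddc3 stayed at 2.34 to 2.72 in all 12 arrays, and the knockout minus control difference was -0.17 in cerebral and -0.02 in cerebellar vessels. That of Liph stayed at 2.91 to 3.04, with differences of 0.03 and 0.06. The second set of Dpep1 stayed at 2.29 to 2.33 in control arrays and read 2.33, 2.33 and 2.32 in knockout cerebral vessels. In knockout cerebellar vessels it read 2.79, 3.55 and 2.34, so all 3 arrays were above the controls, by 0.01 at the closest, and only knockout mouse 2 exceeded the median of all values. The difference was 0.58 there and 0.01 in cerebral vessels. These 3 sets failed the filter, and the values of Hddc3, Liph and Dpep1 given above come from a single probe set each, as do those of the 4 genes that have no second set.

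**Figure D2:**
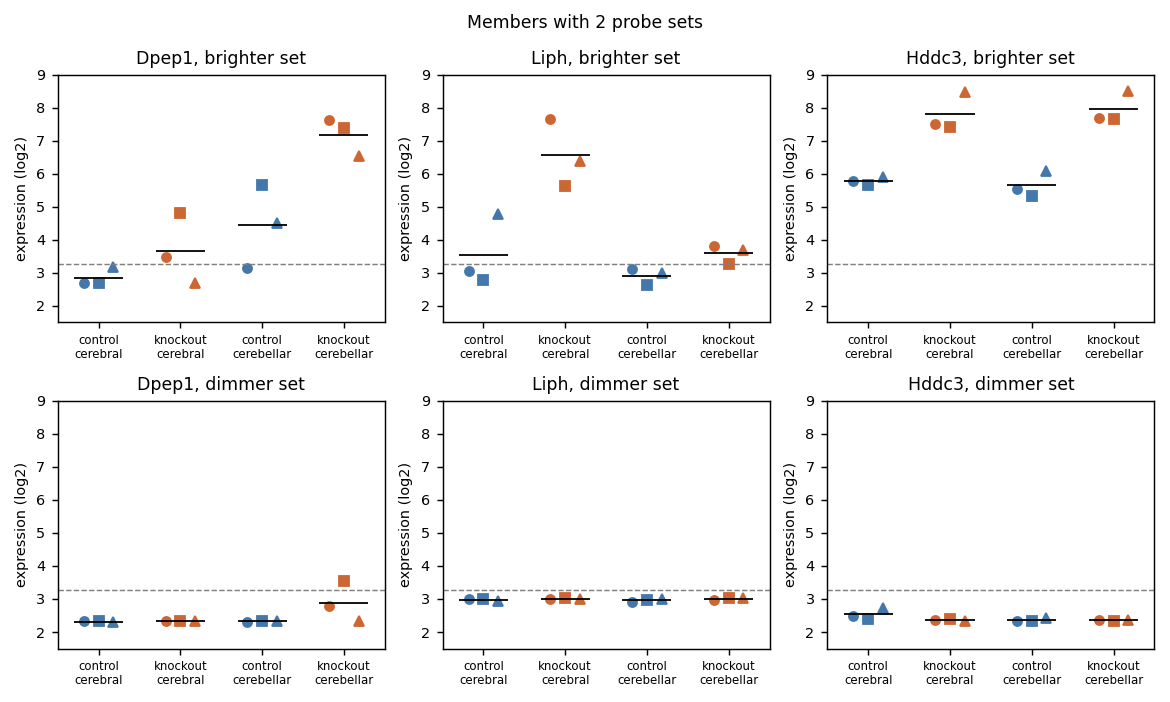
Expression (log2) of both probe sets of Dpep1, Liph and Hddc3 in each array, on the same axis range, with symbols for mice, bars for group means and a dashed line at 3.27. The dimmer set of each gene stays near or under the dashed line in all groups.

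The regions were compared next, on the mean difference between cerebellar and cerebral vessels over both genotypes. In the balanced design the sampling error of this mean is uncorrelated with that of either knockout difference only if the groups have the same spread. The spreads differed. In cerebral vessels the SD was 0.17 in controls and 0.77 in knockouts for Pam and 0.03 and 0.41 for Ap1s3. For Fez1 it was larger in controls (0.46 and 0.13). The region comparison is therefore not taken as independent of the choice of genes. The mean still holds the step within knockouts, so for a gene raised mainly in a single region it contains part of the rise that chose the gene. In the limma fit over all genes 2 of 7 genes, Dpep1 and Liph, passed the threshold (Benjamini-Hochberg adjusted p under 0.05, said below to be called), beside 12.4% of all genes. Both are raised mainly in a single region, and of their control arrays only 2 for Dpep1 and 1 for Liph exceeded 3.27, so that both passed the filter through knockout arrays. Their steps are therefore given as a description and nothing is read from those calls.

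Dpep1 was 2.55 log2 (SE 0.45) higher in cerebellar vessels over both genotypes, in 6 of 6 mice. The step was 1.58 in controls and 3.52 in knockouts. Liph had a mean step of -1.80 (SE 0.39), made of -0.63 in controls and -2.97 in knockouts, and was higher in cerebellar vessels in 1 of 6 mice, control mouse 1. Its cerebellar arrays lay between 2.62 and 3.81, near background. Whether the step differs between genotypes was not tested, because that contrast is made of the values that chose the genes.

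The other 5 genes were not called between regions. Hebp1 was lower in cerebellar vessels by a small amount (-0.25, SE 0.08, adjusted p = 0.0835). This step was -0.01 in controls and -0.48 in knockouts, so it lay in the knockout arrays, whose high values chose the gene. With each mouse as a block, since it gave both regions, Hebp1 was called (adjusted p = 0.00501), and so were 2495 genes in place of 1449. Nothing is read from that call of Hebp1. Fez1 had a difference of 0.28 with a 95% interval from -0.12 to 0.69, and Pam one of -0.08 from -0.77 to 0.61. For Ap1s3 the interval ran from -0.32 to 0.27 and for Hddc3 from -0.51 to 0.53. These intervals come from the fit without the mouse block, so they include differences between mice that both regions share. With each mouse as a block in limma, Fez1 went from an adjusted p of 0.339 to 0.0661. Fez1, Pam, Ap1s3 and Hddc3 were not called with that block. Ap1s3 was near background in controls of both regions, so its value in them is a bound. It passed the filter through knockout arrays only, and its interval cannot show whether the regions differ in controls.

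The genes also differed among mice of the same genotype, and for some the same mouse stood out in both regions. Knockout mouse 1 lay below its group mean for Pam by 0.88 in cerebral and 0.96 in cerebellar vessels, while knockout mice 2 and 3 lay above it by 0.33 to 0.56. For Hddc3 knockout mouse 3 was above its group mean by 0.69 and 0.56, and control cerebellar vessels of mouse 3 were above theirs by 0.45. Knockout mouse 2 was the lowest of its group in both regions for Ap1s3 (-0.47 and -0.23) and for Hebp1 (-0.20 and -0.18). For Dpep1 knockout mouse 2 was 1.15 above its group in cerebral and 0.20 above in cerebellar vessels, knockout mouse 3 was 0.98 and 0.63 below, and control mouse 1 was 1.30 below its group in cerebellar and 0.17 below it in cerebral vessels.

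A moderated F test in limma asked, over all genes, whether mice of a genotype differ in a way that both regions share. It was added after these deviations were seen, so that its calls restate them with a p and are not separate evidence. Pam (adjusted p = 0.00831) and Hddc3 (adjusted p = 0.0308) were called, 2 of 7, beside 4.18% of all genes. For Hebp1 (adjusted p = 0.0731), Ap1s3 (0.0855), Fez1 (0.098), Liph (0.252) and Dpep1 (0.284) the test did not pass. Pam and Hddc3 separated different animals, knockout mouse 1 and knockout mouse 3, and both of these animals had Xist.

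**Figure D3:**
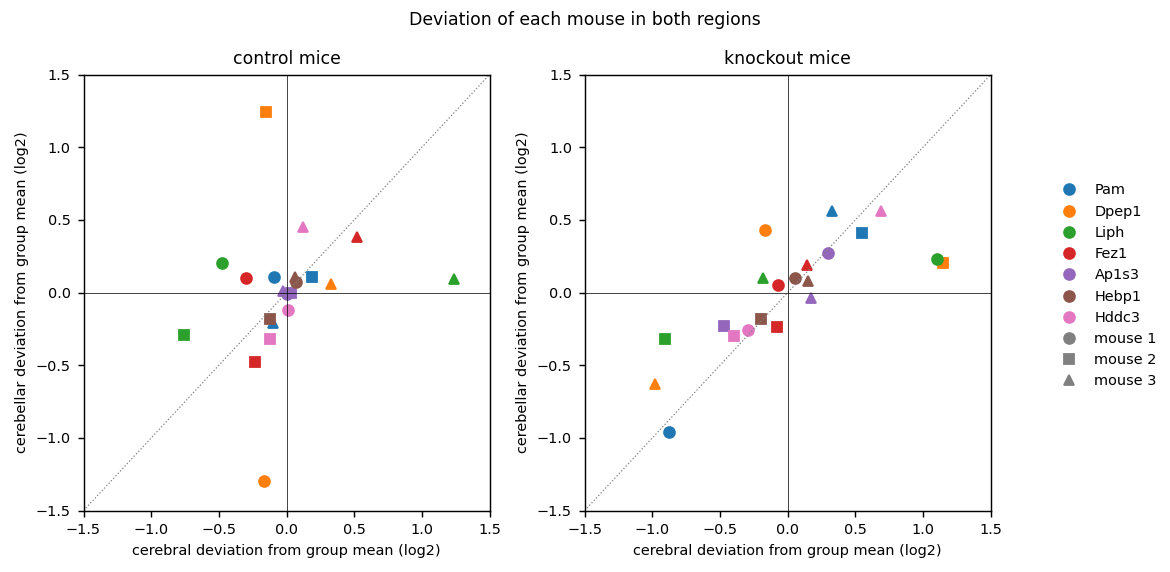
Deviation of each mouse from its group mean (log2) in cerebral vessels, across, and cerebellar vessels, upward, for the 7 genes in control and knockout mice. The dotted line marks equal deviations. Pam of knockout mouse 1 (-0.88, -0.96) and Hddc3 of knockout mouse 3 (0.69, 0.56) lie near it and far from the centre.

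The tested genes nearest to the 7 on their chromosomes, 5 on each side, were compared between genotypes to see how the surroundings behaved. They were taken by order with no limit on distance, so some may lie far from their gene. Of 70 such neighbours 14 were called in cerebral vessels, 7 higher and 7 lower, beside 6.38% of all genes (2.45% higher and 3.93% lower). In cerebellar vessels 9 were called, 3 higher and 6 lower, beside 4.22% of all genes (1.06% higher and 3.17% lower), and 8 neighbours were called in both. The called neighbours lay beside 4 of the genes. None of the 30 neighbours of Pam, Dpep1 and Liph was called in either region by limma, and 6 in cerebral and 2 in cerebellar vessels had an unadjusted p under 0.05. Dropping any one of the control cerebral arrays gave 9 in place of 14, dropping that of knockout mouse 3 gave 8, and a fit to the 6 cerebral arrays alone called 7. Dropping any one of the control cerebellar arrays gave 5 in place of 9.

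Beside Ap1s3, 5 of 10 neighbours were called in cerebral and 4 in cerebellar vessels. Kcne4, an accessory subunit of potassium channels, read 9.22, 9.34 and 9.55 in control and 6.71, 7.22 and 6.81 in knockout cerebral vessels. In cerebellar vessels it read 9.69, 9.68 and 9.84 in controls and 7.74, 8.0 and 7.55 in knockouts. The groups did not overlap, and Kcne4 fell by 2.46 log2 (SE 0.15, adjusted p = 8.77e-06) and fell by 1.98 (SE 0.15, adjusted p = 3.58e-05). The mitochondrial ribosomal gene Mrpl44 (-0.42 and -0.34) and Sgpp2, a sphingosine phosphatase (-0.44 and -0.43), fell in both regions, and Acsl3, an acyl-CoA synthetase, fell in cerebral vessels (-0.45). Farsb, a tRNA synthetase subunit, rose (0.36 and 0.41). Of the 10 neighbours 4 fell and 1 rose in cerebral vessels and 3 fell and 1 rose in cerebellar vessels, and the others did not pass the test.

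Around Hebp1, 4 of 10 neighbours were called in cerebral and 3 in cerebellar vessels. Atf7ip, a partner of histone methylation enzymes, read 11.62, 11.32 and 11.56 in control and 10.77, 10.74 and 10.56 in knockout cerebral vessels. It fell by 0.81 (SE 0.09, adjusted p = 6.19e-04) there and fell by 0.82 in cerebellar vessels. Cdkn1b, the cell cycle inhibitor p27, fell as well (-0.59 and -0.71). The membrane protein gene Emp1 rose in both regions (0.76 and 0.63) and Fam234b in cerebral vessels (0.75).

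Next to Hddc3, 3 of 10 neighbours were called in cerebral and 2 in cerebellar vessels. Rccd1, whose product acts with a histone demethylase, read 7.93, 8.07 and 8.10 in control and 8.59, 8.62 and 9.38 in knockout cerebral vessels. In cerebellar vessels it read 7.86, 7.98 and 7.78 in controls and 8.88, 8.70 and 9.42 in knockouts. As for Hddc3, knockout mouse 3 was the highest in both regions. Rccd1 rose by 1.13 (SE 0.22, adjusted p = 0.018) in cerebellar vessels and had a difference of 0.83 (adjusted p = 0.0558) in cerebral vessels. Man2a2, a Golgi mannosidase (0.82), and the tyrosine kinase gene Fes (0.59) rose in cerebral vessels. Crtc3, a coactivator of CREB, fell in both (-0.62 and -0.77). Unc45a, a myosin chaperone gene next to Hddc3, had differences of -0.08 and -0.11. Beside Fez1, Tmem218 (0.35) and the transporter gene Slc37a2 (0.92) rose in cerebral vessels.

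**Figure D4:**
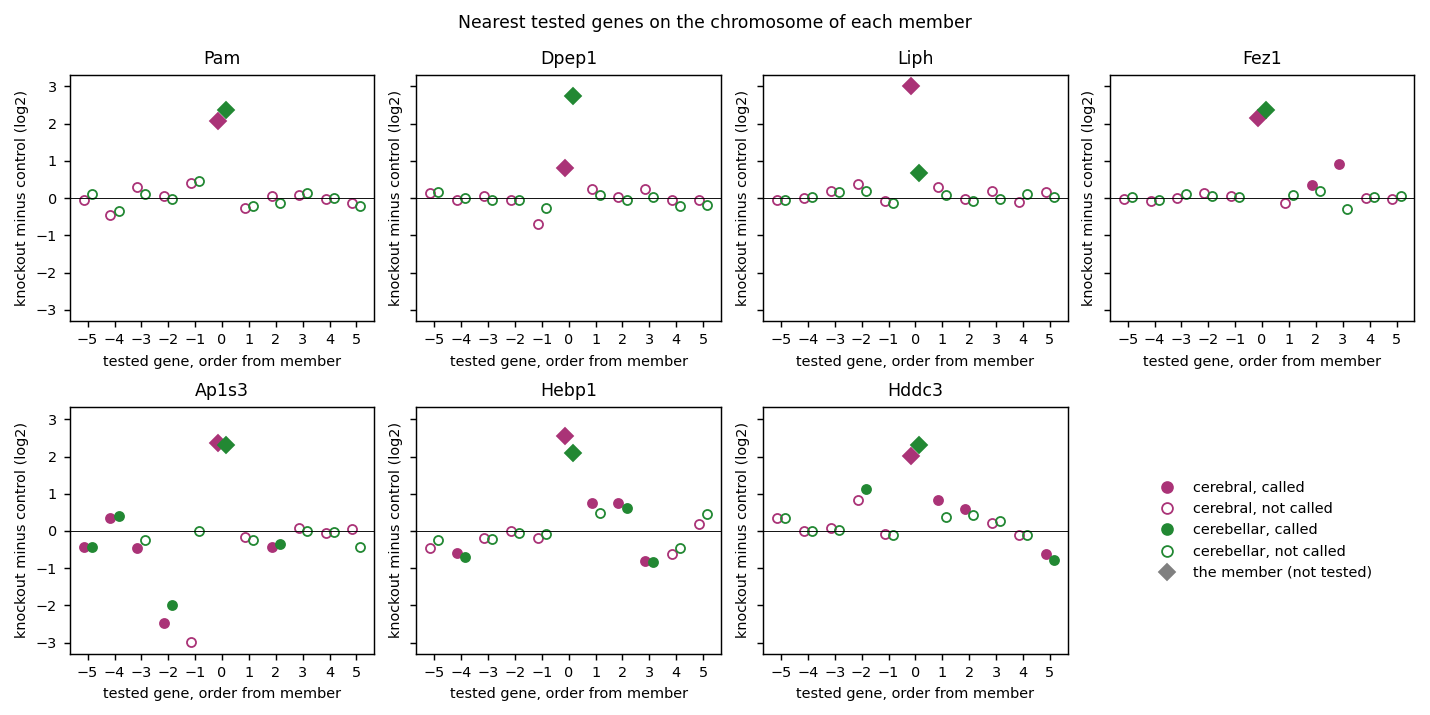
Knockout minus control (log2) of the 5 nearest tested genes on each side of each of the 7 genes, in chromosome order, with diamonds for the gene itself and filled circles for neighbours called by limma. Filled circles appear beside Ap1s3, Hebp1, Hddc3 and Fez1, and those of Ap1s3, Hebp1 and Hddc3 lie on both sides of 0.

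The genes that share a complex, family or pathway with the 7 were compared between genotypes to see whether the partners moved too. Of 94 tested partners 8 were called in cerebral vessels, 3 higher and 5 lower, and 5 in cerebellar vessels, 1 higher and 4 lower. That is 8.51% and 5.32% of them, beside 6.38% and 4.22% of all genes. Their median difference was 0.01 in cerebral and 0.02 in cerebellar vessels. Dropping the cerebral array of control mouse 2 or of knockout mouse 3 gave 5 in place of 8, and a fit to the 6 cerebral arrays alone gave 2. Dropping the cerebellar array of mouse 1 of either genotype, control mouse 2 or knockout mouse 3 gave 3 in place of 5, as did a fit to the 6 cerebellar arrays alone.

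Among 14 genes of AP-1 and related adaptors none was called by limma in either region, and 2 in cerebral and 4 in cerebellar vessels had an unadjusted p under 0.05. Ap1s1 had a difference of -0.04 (SE 0.10) in cerebral and 0.19 (SE 0.10) in cerebellar vessels, and Ap1s2 had -0.10 and 0.01 (SE 0.12). The largest difference in the group was that of Ap1b1, the beta subunit, at 0.29 (adjusted p = 0.0757) in cerebral vessels. For Fez1, 13 genes of kinesin transport were tested. Its relative Fez2 had differences of 0.17 and 0.02, and the kinesin heavy chain Kif5b had -0.06 and -0.05. Map1b, a microtubule-binding protein, read 7.25, 7.31 and 7.28 in control and 5.89, 5.97 and 5.60 in knockout cerebral vessels. Map1b fell by 1.46 (SE 0.18, adjusted p = 7.63e-04) there and fell by 1.44 in cerebellar vessels. Kif3a, a kinesin subunit, fell in both regions (-0.48 and -0.46), and the kinase Ulk1 fell in cerebellar vessels (-0.26).

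Of 18 genes of peptide amidation and hormone processing none was called by limma, and 5 in cerebral and 3 in cerebellar vessels had an unadjusted p under 0.05. Chga, a granin of hormone granules, had the largest difference, -3.10 in cerebral vessels. It read 2.50, 8.72 and 9.18 in control and 2.41, 6.42 and 2.28 in knockout cerebral vessels and stayed at 2.19 to 2.23 in the 6 cerebellar arrays. So the gene was high in 3 of 12 arrays of both genotypes, and Pam did not follow it. Scg2, a second granin and a neighbour of Ap1s3, was at 5.79 in control mouse 2 and 9.44 in control mouse 3 in cerebral vessels, and at 2.62 in control mouse 1.

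Among 15 genes of heme binding and turnover Blvrb, a biliverdin reductase, fell in cerebral vessels (-0.40, adjusted p = 0.0314). Of 10 genes around Hddc3, chosen for nucleotide hydrolysis and NADPH, Nnt fell in cerebral vessels. Nnt, the mitochondrial transhydrogenase that makes NADPH, read 12.50, 12.76 and 12.49 in control and 12.20, 12.09 and 11.97 in knockout cerebral vessels. It fell by 0.49 (SE 0.10, adjusted p = 0.0186) there and had a difference of -0.40 (adjusted p = 0.0638) in cerebellar vessels. Of 11 genes of lysophosphatidic acid Plpp1, a phosphatase that degrades it, rose by 0.49 (SE 0.07, adjusted p = 0.00303) in cerebral and 0.54 (SE 0.07, adjusted p = 0.00161) in cerebellar vessels. Its control arrays lay at 12.10 to 12.27 and its knockout arrays at 12.53 to 12.78 over both regions, with no overlap.

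In the dipeptidase, glutathione and leukotriene group, 3 of 13 genes were called in cerebral and 1 in cerebellar vessels. Ggt5, which acts just before Dpep1 on leukotriene C4, read 8.52, 8.54 and 8.63 in control and 7.32, 7.78 and 7.74 in knockout cerebellar vessels. Ggt5 fell by 0.95 (SE 0.13, adjusted p = 0.00177) there and fell by 0.55 in cerebral vessels. Ltc4s (1.11, adjusted p = 0.011) and Alox5ap (1.14, adjusted p = 0.0116), which serve leukotriene synthesis, rose in cerebral vessels and were not called in cerebellar vessels (0.33 and 0.41). The test of whether their knockout differences differ between regions did not pass (adjusted p = 0.999 for both in limma).

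Markers of cell types were read beside the 7 genes. In bulk vessel fragments, fewer cells of a type and less RNA per cell cannot be told apart. Of 9 microglia markers 9 had a positive difference in cerebral vessels and 4 were called, with none at background level. Their mean over the list was 12.24, 11.74 and 12.33 in control and 13.18, 12.57 and 12.97 in knockout cerebral vessels. In cerebellar vessels it was 11.46 to 11.82 in controls and 11.71 to 11.87 in knockouts. Liph had the same order of mice as this list in both cerebral groups, with knockout mouse 1 highest and knockout mouse 2 lowest, and the order was not shared in control cerebellar vessels. The part of microglia in the values of Liph, Ltc4s and Alox5ap was not tested.

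Fibroblast markers, 10 of them, averaged 8.33 to 8.83 in cerebral and 9.11 to 9.46 in cerebellar arrays, and choroid plexus markers 10.65 to 11.84 and 11.76 to 12.51. Both lists were thus higher in the region where Dpep1 was higher. This was not particular to them. Within each genotype the astrocyte means and the smooth muscle and pericyte means were also higher in cerebellar arrays. In controls the latter were 12.48 to 12.65 in cerebral and 12.75 to 13.06 in cerebellar arrays. Within groups Dpep1 did not always share the order of mice with the fibroblast and choroid plexus lists. In knockout cerebral vessels mouse 2 had the highest Dpep1 (4.80), fibroblast mean (8.83) and choroid plexus mean (11.84). In control cerebral vessels mouse 3 had the highest Dpep1 (3.18, near background) and the lowest fibroblast (8.50) and choroid plexus (10.65) means. In knockout cerebellar vessels mouse 1 had the highest Dpep1 (7.61), the highest fibroblast mean (9.46) and the lowest choroid plexus mean (11.91). Between genotypes the fibroblast markers went both ways. Col3a1, a collagen, rose in both regions (0.71 and 0.82), Ogn rose in cerebellar vessels (0.66), and the transporter gene Slc6a13 fell in cerebral vessels (-0.77). The list's median difference was -0.06 in cerebral and 0.00 in cerebellar vessels. None of 9 choroid plexus markers was called by limma in either region, and 0 had an unadjusted p under 0.05. Their medians were 0.20 and 0.04. The part of these cells in the value of Dpep1 was not tested. Astrocyte markers, 9 of them, averaged 10.68 to 10.91 in control and 11.04 to 11.27 in knockout cerebellar vessels, with no overlap. Of these 7 had a positive difference there, with a median of 0.51, and the only one called was Atp1b2, a sodium pump subunit, which fell (-0.42). In cerebral vessels the astrocyte means overlapped, at 10.05 to 10.59 and 9.97 to 10.75. The mean of 6 neuron markers was 6.98 to 7.01 in control and 7.06 to 7.09 in knockout cerebellar vessels, and the only one called was Map2, which fell (-0.74). Their part in the cerebellar values of the 7 genes was not tested. Of 10 smooth muscle and pericyte markers, 6 were called lower in cerebral and 5 in cerebellar vessels, beside 3.93% and 3.17% of all genes. Acta2, Tagln, Myh11, Cnn1 and Cspg4 fell in both regions, and Pdgfrb was called in cerebral vessels only. Rgs5 (-0.04 and -0.09), Kcnj8 (-0.10 and -0.03), Abcc9 (0.02 and -0.10) and Vtn (-0.15 and -0.08) were not called, so the markers did not fall as a class. The mean over the whole list was 12.48 to 13.06 in controls and 11.82 to 12.43 in knockouts. Pam, Fez1, Ap1s3, Hebp1 and Hddc3 were highest in the same 6 arrays in which this mean was lowest. Those are the knockout arrays, whose high values chose these genes, so nothing is read from the match. The part of smooth muscle cells and pericytes in the values of these genes was not tested.

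**Figure D5:**
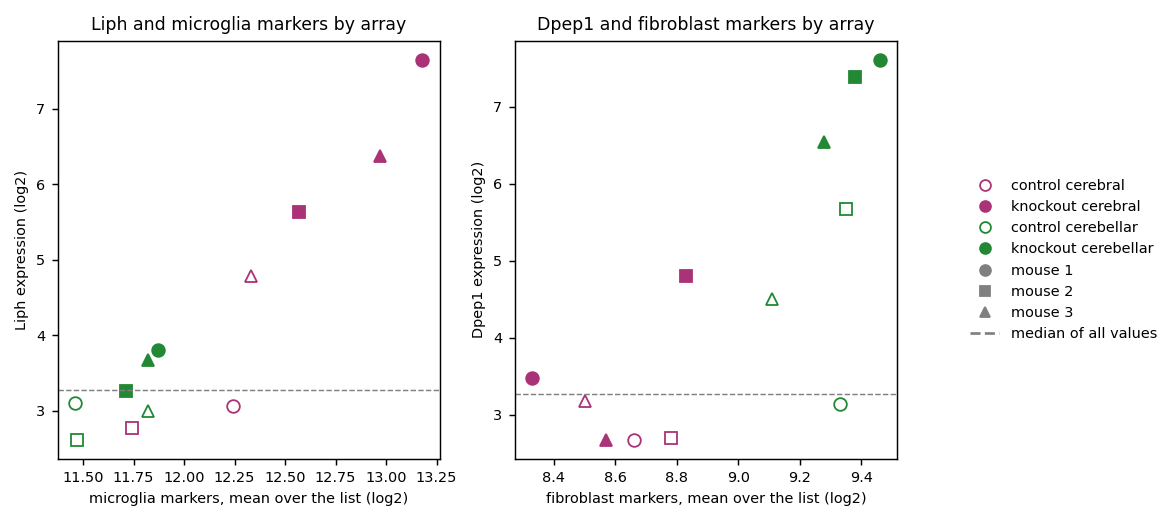
Expression (log2) of Liph against the mean of 9 microglia markers, and of Dpep1 against the mean of 10 fibroblast markers, in each of 12 arrays. Filled symbols are knockouts and colours give the region. The knockout cerebral arrays, at 12.57 to 13.18 on the microglia axis, are the highest for Liph. The pairs were chosen after the values were seen.

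For each of the 7, the 3 genes with the most similar pattern were taken by Pearson's r over the 12 arrays, which come from 6 mice and share the genotype difference. Ap1s3 and Hebp1 had the same 3 nearest genes, Ang (r = 0.986 and 0.990), Lrmda (0.989 and 0.988) and Eme2 (0.983 for both). These lie on chromosomes 14 and 17 and were themselves much higher in knockouts. Nearest to Hddc3 were Tmem222 (0.981), Zfp932 (0.965) and Rccd1 (0.956), the last of which is its neighbour on chromosome 7. Fez1 was closest to Zfp932 (0.981), Fuca2 (0.970) and Plpp1 (0.961), and Pam to Tspan4 (0.967), Adipor2 (0.960) and Zfp946 (0.958). The genes closest to Liph were Rasl2-9 (0.976), Fam91a1 (0.973) and Hexa (0.970), a lysosomal hexosaminidase subunit. Dpep1 was most like Moxd1 (0.936), Huwe1 (0.929) and Tgfbi (0.925), with the lowest values of r among the 7.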

How the data were processed

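Affymetrix mouse genome arrays were run on total RNA. The deposited values are on a log2 scale, 1 for each probe set, and the submitters' processing notes name GCRMA 2.32.0. They were used unscaled. Probe sets were named through the platform annotation and RefSeq gene table. 

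Probe sets stayed in if they read over 3.27, the median of the whole table, on 3 or more arrays. The brightest kept set stood for its gene (11716 genes). Tests used limma 3.58.1 in R 4.3.3 (lmFit, eBayes, two-sided) on 4 group means over 12 arrays, 8 residual degrees of freedom, with Benjamini-Hochberg adjustment over all genes and a threshold of 0.05. The F test among mice added 4 terms for mice to the group means, so fewer residual degrees of freedom remained in it. The fits were run on simulated data with noise drawn independently for each array. That noise held no correlation between the regions of a mouse, so the fits were not tried under it. SEs of the 7 genes' knockout differences come from group SDs, and the 95% intervals use 8 degrees of freedom.

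The replicate number was taken as the mouse. Deviations from group means of the regions of a mouse correlated with r of 0.37 to 0.70. Every probe set of the 7 genes was named, with all called neighbours and partners, the partner with the largest difference in a group with none called, and others chosen after their values were seen. The genes, lists and tests were chosen with earlier results of these data known. Alternatives covered filter, probe sets, scaling, variance, weights, blocks, Xist and leaving out arrays. The number of arrays limits the precision.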

Additional observations from a re-analysis of the deposited data

How the results depend on the processing

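The region steps of Dpep1 (2.24 to 2.88) and Liph (-2.03 to -1.49) stayed past the threshold in every alternative in which they were tested. The alternatives use the same values that chose these genes, so nothing is read from those calls either. The filter at the 75th percentile left out 5 of the 7 genes, so that 0 were called. Hebp1 was also called with array weights, with any replicate block and without knockout cerebral replicate 2. Its step lay in the knockout arrays, so nothing is read from these calls of Hebp1. The knockout differences of the 7 genes kept their sign in all alternatives that gave a value.

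With only the 6 arrays of a region, 310 genes were called in cerebral vessels, with 2 partners, 7 neighbours and 8 cell type markers, and 3 partners in cerebellar vessels. Array weights gave 1415 genes, 22 neighbours and 22 markers in cerebral vessels and 2214 genes between regions. Without a filter 8 and 5 markers were called in cerebral and cerebellar vessels, and 5 partners with the filter at the 75th percentile in cerebral vessels. Numbers shared by mice of different genotype do not pair them (r of -0.17 to 0.26). That replicate block called 1127 genes in cerebral vessels. Between regions the mouse as a fixed or random replicate block called 2495 and 2806 genes. The cause of these shifts was not tested.

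Leaving out each array in turn gave 438 to 867 genes in cerebral vessels, 298 to 496 in cerebellar vessels and 949 to 1645 between regions. Neighbours numbered 8 to 15 and 5 to 10, partners 5 to 10 and 3 to 5, and markers 7 to 15 and 4 to 9, in cerebral and cerebellar vessels.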
